A study of Mus musculus with 8 samples.

Results

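The expression of 41 genes for Polycomb and trithorax histone modifiers was examined in the P1 mouse cortex after loss of the BAF chromatin remodelling complex from postmitotic neurons. The genes were chosen by symbol for their known roles, out of 48709 genes in the count data. They comprise 9 genes of the Polycomb repressive complex 2 (PRC2) and 18 of Polycomb repressive complex 1 (PRC1). The others are 2 demethylases of histone H3 lysine 27 (H3K27) and 12 trithorax-type genes. Most of the 12 belong to the methyltransferase complexes that are known as COMPASS. All 41 were found and all passed the filter on low counts.

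The bulk RNA-seq data comprised 8 libraries of whole cortex taken at postnatal day 1, of which 4 were control and 4 were double knockout. Per the study's methods, the knockout cortex (dcKO_Nex-Cre) carried floxed alleles of BAF155 (Smarcc1) and BAF170 (Smarcc2) that were deleted by Nex-Cre, a driver active in postmitotic excitatory neurons of the cortex, while the controls were heterozygous for both floxed alleles and carried no Cre, so the Cre allele was present in the knockout group alone. All mice were on a C57BL6/J background. Glia and interneurons in the dissected tissue keep the BAF complex, and nothing in the labels says whether each library came from a separate animal, so that the p-values measure the spread between these libraries. In bulk tissue, fewer cells of a type and less RNA per cell cannot be told apart.

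PRC2 adds methyl groups to H3K27 through its catalytic subunits EZH1 and EZH2, and PRC1 attaches ubiquitin to histone H2A, and together these marks keep developmental genes silent. Trithorax-type complexes methylate lysine 4 of histone H3 (H3K4) at promoters and enhancers and counteract Polycomb silencing. BAF complexes, which slide and evict nucleosomes, belong to the trithorax group by function and are known to oppose Polycomb on chromatin. In the developing cortex PRC2 is known for its part in the timing of neurogenesis and in the switch from neuron to glia production.

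The upstream sequences of Jarid2 and Ezh1 are shown because these members had the smallest p-values and did not overlap between the groups. Each is the 250 bases upstream of a RefSeq transcript start on GRCm38, written on the strand of the gene, with CG dinucleotides in capitals, since unmethylated CG is the letter pair bound by the CXXC domains of the members KDM2B, KMT2A and KMT2B. The Jarid2 window lies at chr13:44730524-44730773 on the plus strand, and is 1 of 2 windows listed for the gene. Its transcript start is 1300 bases downstream of the gene's start in GENCODE, so the window lies within the gene as annotated there. The Ezh1 window lies at chr11:101226464-101226713 on the minus strand and ends at the GENCODE start of the gene.
Jarid2: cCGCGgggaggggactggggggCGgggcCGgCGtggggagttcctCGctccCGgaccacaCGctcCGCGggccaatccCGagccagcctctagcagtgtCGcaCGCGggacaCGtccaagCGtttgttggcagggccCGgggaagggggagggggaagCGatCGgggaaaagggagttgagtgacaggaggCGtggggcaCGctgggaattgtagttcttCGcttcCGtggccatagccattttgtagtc
Ezh1: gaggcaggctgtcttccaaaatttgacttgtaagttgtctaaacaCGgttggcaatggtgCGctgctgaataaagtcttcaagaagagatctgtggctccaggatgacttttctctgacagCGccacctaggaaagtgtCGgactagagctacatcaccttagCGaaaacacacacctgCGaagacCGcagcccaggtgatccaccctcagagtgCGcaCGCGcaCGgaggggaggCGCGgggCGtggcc
The Jarid2 window holds 23 CG and the Ezh1 window 14, against a median of 6 over 32851 windows of the same length, and 86.7% and 70.6% of those windows hold fewer. The letters GGGCGG (read on both strands) were found in the Jarid2 window and not in the Ezh1 window, and 32.7% of all windows hold them. The letters CCAAT, likewise read on both strands, were also found in the Jarid2 window and not in the Ezh1 window, and 33.8% of all windows hold them. A window was given for 32 of the 41 members. Taking the window with the most CG of each member, these held from 5 CG (Pcgf2) to 48 CG (Kmt2c). The windows of Jarid2 and Ezh1 lay within that range, so their CG content was not particular to them.

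The 4 controls held 18737230 to 24036915 counts each, and the 4 mutants 17958641 to 35191912. The deleted genes were lower in the mutant libraries. Smarcc2 was at 428.5 to 486.4 CPM (counts scaled to library size, edgeR) in the control and 241.0 to 292.1 CPM in the mutant, with a log2 fold change of -0.81 (adjusted p = 0.00267, edgeR quasi-likelihood test). Smarcc1 was at 138.6 to 164.4 CPM in the control and 93.0 to 122.1 CPM in the mutant, with a log2 fold change of -0.53 (adjusted p = 0.0348, edgeR). The Smarcc1 call was lost when any 1 of 6 libraries was left out (each control, dcKO_Nex-Cre 1 or 3), with log2 fold changes between -0.56 and -0.47. Over all 16287 genes tested, 61 were upregulated and 83 downregulated at an adjusted p below 0.05. Several libraries stood apart within their group. Mitochondrial genes took 6.87% of the counts in control 2 against 3.38% to 4.24% in the other controls, and 6.15% in dcKO_Nex-Cre 4 against 2.33% to 3.47% in the other mutants. In the names of the deposited data the 4 controls and dcKO_Nex-Cre 1 and 2 shared a tag, and dcKO_Nex-Cre 3 and 4 had another that no control had. No label says what this tag stands for. Control 2 and dcKO_Nex-Cre 2 were also the libraries with high Xist.

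The histone modifier genes were expressed over a wide range in the control cortex. Levels were compared between genes as CPM per kilobase of exon. Dpy30, a small shared subunit of all COMPASS complexes, had the highest level at 60.3 ± 12.3 (SD, n = 4). Yaf2, a PRC1 subunit, followed at 41.5 ± 2.90 (SD, n = 4), and Rnf2, which encodes the main ubiquitin ligase of PRC1 (RING1B), at 39.95 ± 2.16 (SD, n = 4). Yaf2 and Rnf2 did not differ beyond their spread, and neither did the next genes in the order, Pcgf2 (33.4 ± 5.52, SD, n = 4), Phc1 (32.0 ± 2.81, SD, n = 4) and Bmi1 (30.9 ± 2.72, SD, n = 4), all of PRC1. At the other end were Cbx7 (1.71 ± 0.385, SD, n = 4), Phf19 (0.682 ± 0.124, SD, n = 4) and Pcgf5 (0.320 ± 0.0703, SD, n = 4).

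Paralogues of a family had unequal levels on the scale of CPM per kilobase of exon. As shares of the summed level per kilobase of exon, Ezh2 made up 72.05% ± 1.42 of the EZH pair in the control (SD, n = 4) and 69.4% ± 4.71 in the dcKO_Nex-Cre cortex (SD, n = 4). Of the ligase pair, Rnf2 made up 84.5% ± 0.733 in the control and 86.6% ± 1.18 in the mutant (SD, n = 4 each). Kdm6b took 71.3% ± 1.19 and 73.6% ± 3.36 of the H3K27 demethylase pair, and Yaf2 88.9% ± 1.34 and 87.1% ± 2.72 of the pair with Rybp (SD, n = 4 each). Cbx6 had the largest share among the 4 CBX members (48.8% ± 2.21 in the control) and Cbx7 the smallest (8.04% ± 0.934). Pcgf2 (37.4% ± 2.17) and Bmi1 (34.8% ± 1.56) led the 6 PCGF genes, and Pcgf5 made up 0.368% ± 0.106. Kmt2e (31.8% ± 2.52) and Kmt2b (21.1% ± 1.12) led the 7 genes of the KMT2 and SETD1 group in the control (SD, n = 4). The order within a family depends on the exon length used. In CPM the control mean of Kmt2a (148.9) was above that of Kmt2b (115.2), while its share per kilobase was 15.65%. Of 28 shares compared, the Ring1 share (14.9% to 16.3% in the control, 11.9% to 14.75% in the mutant) and the Pcgf6 share (6.41% to 6.89% and 5.25% to 6.41%) did not overlap between the groups, each with an exact permutation p of 0.0286, the smallest that 4 against 4 libraries can give, and 0.4 after adjustment over the 28 shares.

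**Figure D1:**
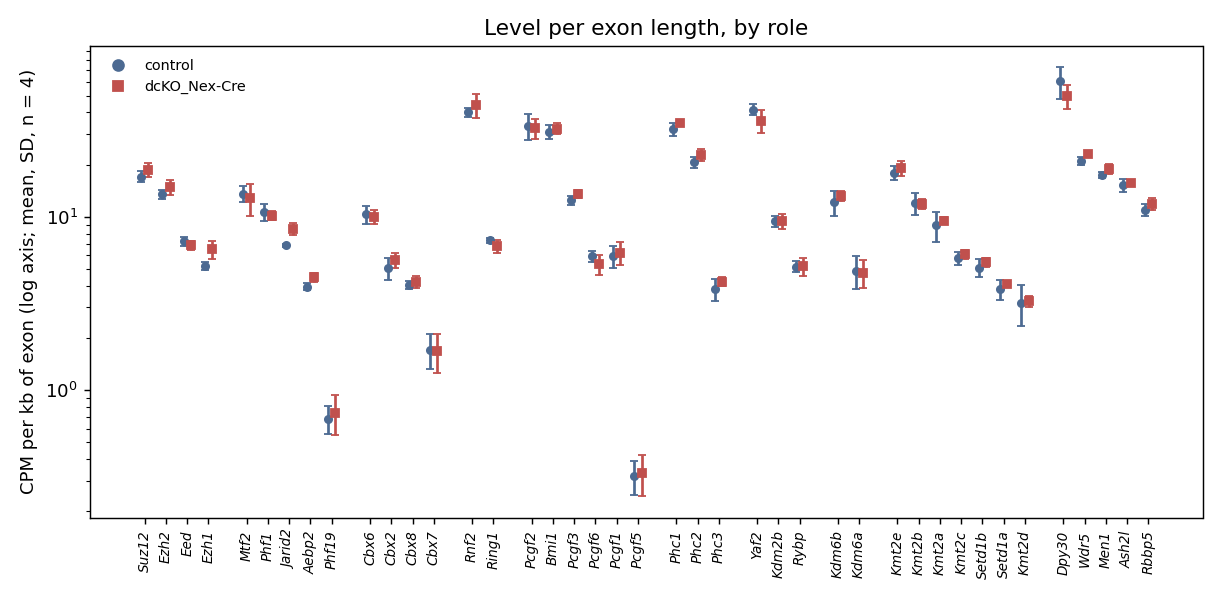
Level of each gene as CPM per kilobase of exon (log axis), grouped by role, in the control (blue circles) and the dcKO_Nex-Cre cortex (red squares), with bars for the SD over 4 libraries. Levels span from 0.320 for Pcgf5 to 60.3 for Dpy30 in the control, and Dpy30, Yaf2 and Rnf2 have the highest levels in both groups.

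The fitted differences of these histone modifiers between the dcKO_Nex-Cre and control cortex were at most 0.32 in size on the log2 scale. None of the 41 passed an adjusted p of 0.05 in edgeR, against 0.884% of all genes tested, and 1 passed in DESeq2 (Jarid2), against 3.16% of all genes. At an unadjusted p below 0.05, 3 members were higher and 0 lower, which is 7.32% of the members against 13.6% of all genes in either direction. Those 3 (Jarid2, Ezh1 and Aebp2) are all genes of PRC2. Fitted log2 fold changes ran from -0.28 for Dpy30 (-0.12 without control 2) to 0.32 for Jarid2, with adjusted p between 0.0827 and 0.989 in edgeR. For 37 members the 95% interval of the log2 fold change lay within 0.5 on either side of 0, and the intervals of the other 4 (Ezh1, Phf19, Pcgf5 and Dpy30) reached no further than -0.59 and 0.59.

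Fitted values were above 0 for 29 members and below 0 for 12, which is 70.7% above 0 against 50.9% of all genes. The median log2 fold change was 0.08, against 0.004 over all genes, and it lay between 0.03 without control 4 and 0.13 without control 2. In 3 members (Jarid2, Ezh1 and Wdr5) every mutant library was above every control library, and in none was the reverse seen, where 3.99% of all genes were wholly higher and 4.01% wholly lower. By role, the median log2 fold change was 0.13 for the 9 PRC2 genes, 0.05 for the 18 PRC1 genes and 0.09 for the 12 trithorax-type genes.

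**Figure D2:**
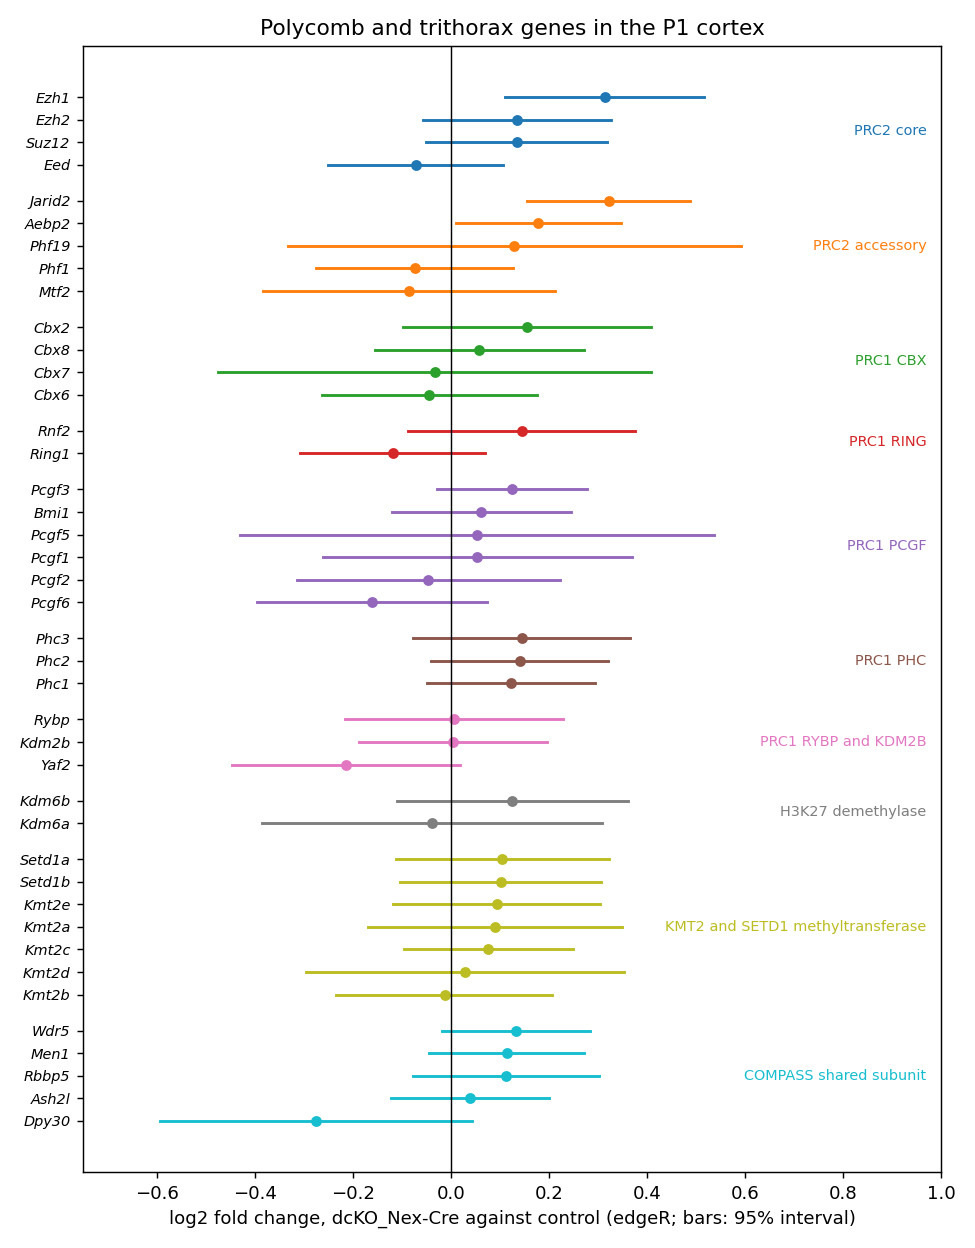
Log2 fold change of each of the 41 genes in the dcKO_Nex-Cre against the control cortex (points) with the 95% interval from edgeR (bars), grouped by role and ordered by size within a role. Only the bars of Ezh1, Jarid2 and Aebp2 lie wholly above 0, none lies wholly below, and none reaches past -0.59 or 0.59.

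Among the PRC2 genes, Jarid2 had the largest difference of the set. JARID2 is a cofactor that helps PRC2 find and act on its targets, and the gene lies at chr13:44729474-44921643 (plus strand, GRCm38). Its level in controls 1 to 4 was 65.35, 66.45, 67.7 and 65.95 CPM, and in dcKO_Nex-Cre 1 to 4 it was 91.6, 81.5, 84.0 and 74.5 CPM. The controls lay close together and every mutant library was above them, with dcKO_Nex-Cre 4 nearest to the controls. The log2 fold change was 0.32 (SE 0.075, adjusted p = 0.0827, edgeR), the mutant mean being 124.9% of the control mean. Jarid2 passed an adjusted p of 0.05 in 4 of the 16 other settings tried. Among these were DESeq2 (adjusted p = 0.00576), the libraries of the shared name tag (log2 fold change 0.39, adjusted p = 0.0463, edgeR) and the fit without dcKO_Nex-Cre 4 (log2 fold change 0.37, adjusted p = 0.0132, edgeR). The edgeR settings in which Jarid2 passed all left out dcKO_Nex-Cre 4. In the fit without that library alone, 7.73% of all genes passed, against 0.884% with all libraries. Where Jarid2 did not pass, its adjusted p was 0.192 with a replicate block and as high as 0.264 without control 1 (edgeR).

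Ezh1 encodes the PRC2 methyltransferase that is known to persist in cells that have left the cell cycle, and lies at chr11:101191115-101226463 on the minus strand of GRCm38. It was at 36.5, 40.9, 40.01 and 38.1 CPM in the controls and at 56.4, 43.4, 48.1 and 45.2 CPM in the mutants. The groups did not overlap, and the value of dcKO_Nex-Cre 1 stood above the other mutants. Ezh1 had a log2 fold change of 0.31 (SE 0.093, adjusted p = 0.174, edgeR), and without dcKO_Nex-Cre 1 the fold change was 0.23. Without dcKO_Nex-Cre 4 it passed the adjusted threshold (log2 fold change 0.35, adjusted p = 0.0431, edgeR). Ezh1 passed in 2 of the 16 other settings tried, both of which left out dcKO_Nex-Cre 4. Its adjusted p was as high as 0.425 without control 1 (edgeR).

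Ezh2, the paralogue linked to dividing cells, was at 93.0, 93.1, 92.7 and 81.6 CPM in the controls and 85.5, 110.3, 100.9 and 99.1 CPM in the mutants. The ranges overlapped, since dcKO_Nex-Cre 1, the library with the most Ezh1, was the mutant with the least Ezh2. Its log2 fold change was 0.13 (95% interval -0.06 to 0.33, adjusted p = 0.513, edgeR). The summed level of 10 marker genes of dividing cells had its lowest mutant value in the same library (306.1 CPM against 328.8 to 448.6 CPM in the other mutants). The controls did not follow that order. Control 4, with the least Ezh2, had the highest sum of the controls (350.2 CPM). Control 2, with Ezh2 at 93.1 CPM, had the lowest (285.0 CPM). The part of dividing cells in these values was not tested.

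Aebp2, a cofactor found in the same form of PRC2 as JARID2, was at 39.4, 39.4, 36.3 and 40.75 CPM in the controls and 44.2, 47.3, 44.1 and 40.5 CPM in the mutants. All mutants but dcKO_Nex-Cre 4 were above the controls. The log2 fold change was 0.18 (SE 0.076, unadjusted p = 0.0402 and adjusted p = 0.339 in edgeR). Suz12, the scaffold of the complex, was at 88.7, 77.8, 90.04 and 80.1 CPM in the controls and 90.2, 98.6, 98.8 and 81.9 CPM in the mutants, which overlapped (log2 fold change 0.13, adjusted p = 0.497, edgeR). Eed, which reads methylated H3K27, had a log2 fold change of -0.07. The Polycomb-like genes Mtf2, Phf1 and Phf19, which mark the alternative form of PRC2, had log2 fold changes of -0.09, -0.07 and 0.13. Phf1 shares 39.3% of its exon bases with Cuta on the opposite strand, so its counts are uncertain if strand was not used in counting, and Phf19 rested on a mean of 85.75 counts per library.

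**Figure D3:**
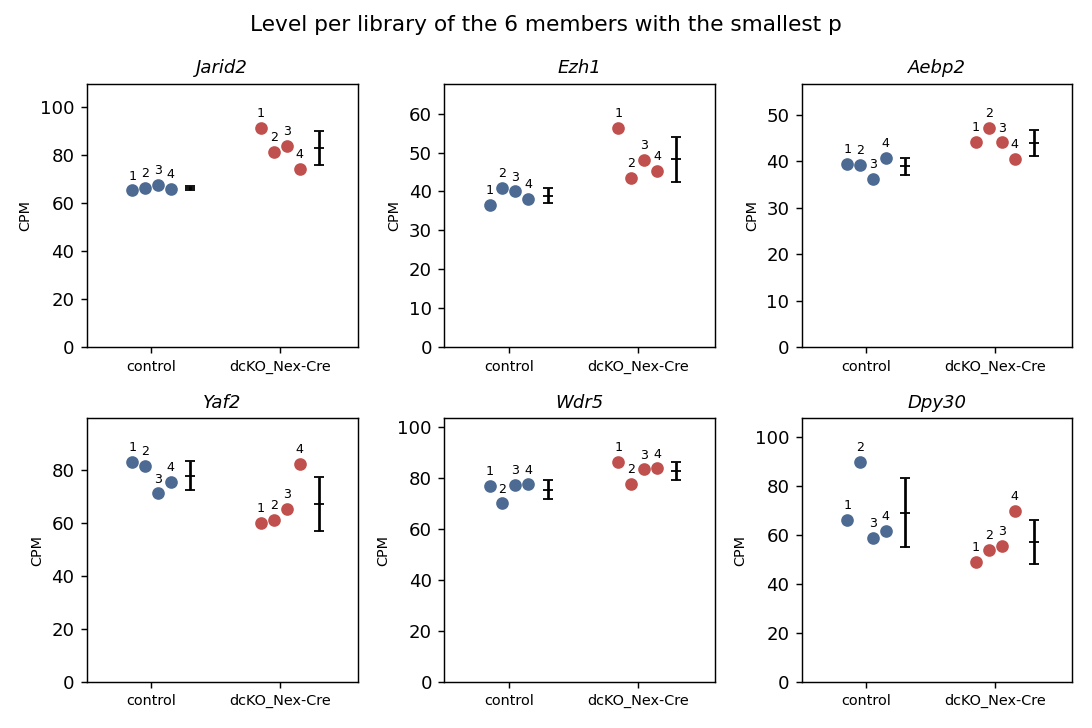
CPM per library (points, numbered by replicate) of the 6 genes with the smallest p-values, with the mean and SD over 4 libraries beside each group and axes that start at 0. Jarid2, Ezh1 and Wdr5 do not overlap between the groups, and dcKO_Nex-Cre 4 lies with the controls for Aebp2, Yaf2 and Dpy30.

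None of the 18 PRC1 genes had an unadjusted p below 0.05, against 13.6% of all genes in either direction. Their log2 fold changes ran from -0.21 for Yaf2 to 0.16 for Cbx2. YAF2 and its paralogue RYBP stimulate the ubiquitin ligase in variant PRC1. Yaf2 was at 82.8, 81.4, 71.1 and 75.55 CPM in the controls and 59.9, 61.0, 65.2 and 82.2 CPM in the mutants. The mutants 1 to 3 were below all controls and dcKO_Nex-Cre 4 lay among them. The log2 fold change was -0.21 (95% interval -0.45 to 0.02, adjusted p = 0.396, edgeR), and without dcKO_Nex-Cre 4 it was -0.32 (adjusted p = 0.03, edgeR). Yaf2 passed the adjusted threshold in 2 of the 16 other settings tried, both of which left out dcKO_Nex-Cre 4. Rybp had a log2 fold change of 0.01.

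The Polyhomeotic proteins PHC1, PHC2 and PHC3 link PRC1 particles into larger assemblies. Phc1 was at 162.3, 191.0, 167.3 and 157.3 CPM in the controls and 185.4, 183.3, 177.9 and 191.6 CPM in the mutants. Phc2 was at 142.6, 145.8, 161.0 and 134.6 CPM in the controls and 164.1, 177.3, 151.1 and 151.0 CPM in the mutants. Phc3 was at 60.1, 81.1, 65.5 and 61.1 CPM in the controls and 76.8, 68.6, 71.9 and 78.4 CPM in the mutants. In Phc1 and Phc3 the other controls lay below all mutants and control 2 did not, and in Phc2 the same held for control 3. The 3 log2 fold changes were 0.12, 0.14 and 0.14, with adjusted p of 0.504, 0.472 and 0.542 in edgeR.

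The PCGF subunits decide which form of PRC1 is assembled. Pcgf3 was at 119.9, 127.1, 114.3 and 112.4 CPM in the controls and 133.9, 122.3, 125.0 and 135.2 CPM in the mutants (log2 fold change 0.12, adjusted p = 0.449, edgeR). Pcgf6 was at 28.9, 33.1, 29.4 and 28.15 CPM in the controls and 22.2, 26.5, 27.5 and 31.0 CPM in the mutants (log2 fold change -0.16, adjusted p = 0.52, edgeR). Both pairs of ranges overlapped, in Pcgf3 through control 2 and in Pcgf6 through dcKO_Nex-Cre 4. Bmi1, Pcgf1, Pcgf2 and Pcgf5 had log2 fold changes of 0.06, 0.05, -0.05 and 0.05. The value for Pcgf5 rested on a mean of 98.75 counts per library.

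Of the ligases, Rnf2 had a log2 fold change of 0.14 and Ring1 of -0.12. Rnf2 was at 153.6 to 173.0 CPM in the controls and at 168.5, 166.0, 168.6 and 226.0 CPM in the mutants, with dcKO_Nex-Cre 4 far above the rest, and without that library the log2 fold change was 0.03. The CBX proteins bring PRC1 to methylated H3K27. Cbx2 was at 18.4, 25.8, 20.6 and 21.4 CPM in the controls and 21.5, 26.8, 22.8 and 24.8 CPM in the mutants (log2 fold change 0.16, adjusted p = 0.56, edgeR). Cbx7 was at 8.56, 14.5, 10.3 and 11.15 CPM in the controls and 7.86, 11.6, 9.78 and 14.4 CPM in the mutants (log2 fold change -0.03, adjusted p = 0.955, edgeR). In each group of libraries Cbx7 spanned a wider range than the difference between the group means. Cbx6, Cbx8 and Kdm2b, whose protein brings variant PRC1 to CG-rich promoters, had log2 fold changes of -0.04, 0.06 and 0.004.

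The H3K27 demethylases remove the PRC2 mark. Kdm6b, the inducible member, was at 77.4, 104.3, 80.6 and 74.4 CPM in the controls and 97.9, 96.4, 86.6 and 86.0 CPM in the mutants. Every mutant library was above 3 of the controls and below control 2. The log2 fold change was 0.13 (95% interval -0.11 to 0.36, adjusted p = 0.621, edgeR). Kdm6bos, on the opposite strand, shares 4.11% of the exon bases of Kdm6b.

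Kdm6a, also known as Utx, lies on the X chromosome and is known to escape X inactivation. It was at 35.99, 54.0, 36.9 and 37.1 CPM in the controls and 35.7, 49.8, 32.7 and 41.3 CPM in the mutants. In each group the library with the most Kdm6a was replicate 2, and the other 6 libraries lay between 32.7 and 41.3 CPM. Xist, the RNA of the inactive X, was at 1877 CPM in control 2 and 917.4 CPM in dcKO_Nex-Cre 2 and at 0.8 to 8.4 CPM in the others. Uty, the Y-linked paralogue of Kdm6a, was at 2.1 CPM in control 2, at 0.0 CPM in dcKO_Nex-Cre 2 and at 20.1 to 28.2 CPM in the others, and the Y-linked Ddx3y and Eif2s3y were likewise lowest in those libraries. The Y-linked genes kept some counts in control 2 (2.1 to 6.8 CPM, against at most 0.4 CPM in dcKO_Nex-Cre 2), and whether control 2 holds RNA of more than 1 animal was not tested. With all libraries, Kdm6a had a log2 fold change of -0.04 (95% interval -0.39 to 0.31, adjusted p = 0.934, edgeR), and without both Xist-high libraries it was -0.01.

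**Figure D4:**
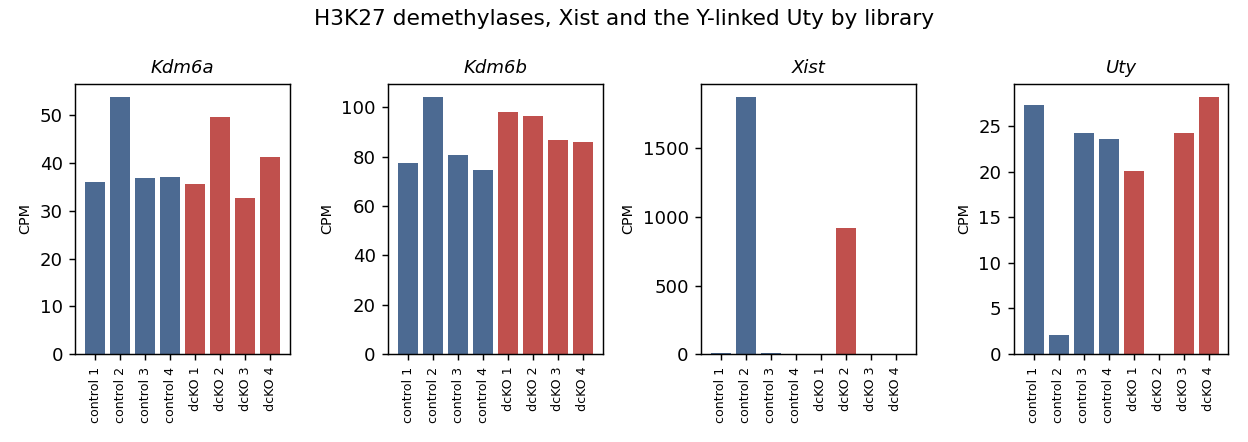
CPM of Kdm6a, Kdm6b, Xist and the Y-linked Uty in each of the 8 libraries (bars from 0, control in blue, dcKO_Nex-Cre in red). Control 2 and dcKO_Nex-Cre 2 have the most Kdm6a in their group, the highest Xist and the lowest Uty.

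Of the trithorax-type genes, the 7 of the KMT2 and SETD1 group had log2 fold changes from -0.01 to 0.11 with all libraries. With 1 library left out the value ranged from 0.03 to 0.24 for Kmt2a, from -0.05 to 0.235 for Kmt2d and from 0.055 to 0.20 for Setd1a. Without control 2 these genes were higher at an unadjusted p below 0.05, and no member passed the adjusted threshold (edgeR). KMT2A and KMT2B methylate H3K4 at promoters. Kmt2a was at 130.3, 190.9, 145.5 and 128.8 CPM in the controls and 164.2, 164.5, 153.8 and 150.5 CPM in the mutants (log2 fold change 0.09, adjusted p = 0.761, edgeR). Kmt2b was at 106.4, 140.2, 107.8 and 106.2 CPM in the controls and 112.7, 111.4, 106.6 and 125.7 CPM in the mutants (log2 fold change -0.01, adjusted p = 0.964, edgeR). For both genes control 2 was the highest of all 8 libraries. Kmt2c and Kmt2d, whose proteins act at enhancers, had log2 fold changes of 0.08 and 0.03. Those of Setd1a and Setd1b, which carry out most H3K4 trimethylation, were 0.11 and 0.10, and that of Kmt2e, a KMT2 relative, was 0.09. Setd1a shares 51.85% of its exon bases with Gm49388 on the same strand, a gene model listed at 0 counts, and Kmt2e shares 9.31% with Srpk2 on the opposite strand.

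WDR5, ASH2L, RBBP5 and DPY30 form the core that all COMPASS enzymes need. Wdr5 was at 77.0, 70.01, 77.3 and 77.5 CPM in the controls and 86.2, 77.7, 83.4 and 83.7 CPM in the mutants. The groups did not overlap, dcKO_Nex-Cre 2 lying just above the highest control. The log2 fold change was 0.13 (SE 0.069, adjusted p = 0.415, edgeR). Dpy30 was at 66.1, 89.8, 58.9 and 61.7 CPM in the controls and 49.2, 53.85, 55.7 and 70.05 CPM in the mutants. All controls were above mutants 1 to 3, and dcKO_Nex-Cre 4 was above 3 of the controls. Its log2 fold change was -0.28 (95% interval -0.59 to 0.04, adjusted p = 0.42, edgeR), and it was -0.12 without control 2 and -0.38 without dcKO_Nex-Cre 4. Ash2l and Rbbp5 had log2 fold changes of 0.04 and 0.11. Men1 encodes menin, a partner of KMT2A and KMT2B, and was at 67.4, 63.2, 67.8 and 68.7 CPM in the controls and 77.2, 75.0, 69.8 and 66.9 CPM in the mutants (log2 fold change 0.11, adjusted p = 0.505, edgeR). Men1 in dcKO_Nex-Cre 1 to 3 was above all controls, and in dcKO_Nex-Cre 4 it was not.

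Part of the spread was shared among the members. Control 2 was the highest control for 27 of the 41 genes, and dcKO_Nex-Cre 4 the highest mutant for 18 and the lowest for 14. Both were the highest of their group for the same 16 genes, among them Mtf2, Cbx7, Pcgf2, Pcgf6, Kmt2b and Dpy30, and both the lowest for Suz12, Men1 and Pcgf5. These ranks were counted for the members alone, with no share over all genes beside them. Over all genes tested, the deviations of control 2 and dcKO_Nex-Cre 4 from their group means had a correlation of 0.371. That was the highest of any pair of a control and a mutant library. Control 2 and dcKO_Nex-Cre 4 have the largest share of mitochondrial counts in their group. What their spread owes to RNA quality or tissue was not tested.

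Calls among the members depended on these libraries. Without dcKO_Nex-Cre 4, 3 members passed the adjusted threshold in edgeR (Jarid2 and Ezh1 higher, Yaf2 lower), or 7.32% of the members, when 7.73% of all genes passed. In the libraries of the shared name tag, 1 member passed (Jarid2), when 1.48% of all genes did. Without control 2, 11 members were higher at an unadjusted p below 0.05 (26.8%), against 6.52% of all genes, and 0 passed the adjusted threshold. With control 2 and dcKO_Nex-Cre 4 both left out, a setting chosen after seeing the data, 6 members (14.6%) passed the adjusted threshold, 5 of them higher and 1 lower, against 5.49% of all genes higher and 5.5% lower. These were Jarid2 (log2 fold change 0.38, adjusted p = 0.00535), Ezh1 (0.37, adjusted p = 0.0235), Kdm6b (0.28, adjusted p = 0.0217), Kmt2a (0.26, adjusted p = 0.0328) and Phc3 (0.22, adjusted p = 0.0495), all higher, and Yaf2 (-0.30, adjusted p = 0.0204), lower, all in edgeR.

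**Figure D5:**
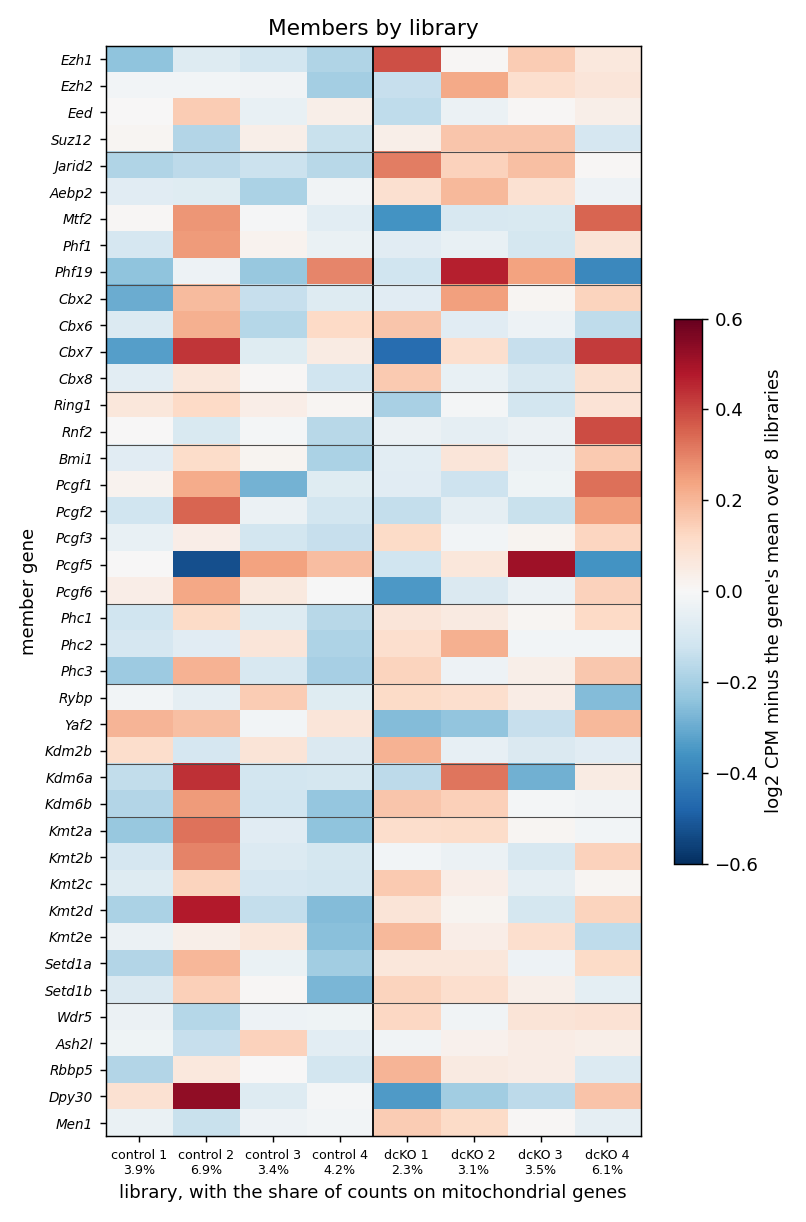
Log2 CPM of each of the 41 genes in each library, minus the mean of the gene over the 8 libraries (red above, blue below), with the share of counts on mitochondrial genes under each library. Rows for Dpy30, Cbx7 and Mtf2 are red in control 2 (6.9%) and dcKO_Nex-Cre 4 (6.1%), and the row for Jarid2 is blue in all controls.

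The comparison was extended to other genes of the same pathways. Of 47 further Polycomb and trithorax genes found in the data, 46 passed the filter and 0 passed an adjusted p of 0.05 in edgeR, with adjusted p of 0.218 or more. At an unadjusted p below 0.05, 5 were higher and 0 lower, which is 10.9% of the 46 against 13.6% of all genes in either direction. Log2 fold changes were above 0 for 35 of the 46 (76.1%, against 50.9% of all genes), with a median of 0.07 against 0.004 over all genes. The 5 were Csnk2a1, a kinase subunit found in PRC1 (log2 fold change 0.21), Mbd5, of the deubiquitinase that removes the PRC1 mark (0.30), Epop, a PRC2 partner (0.32), Nsd1, which methylates lysine 36 of histone H3 (0.19), and Kdm5b, which removes H3K4 methylation (0.24). Of the 46, 4 passed the adjusted threshold without dcKO_Nex-Cre 4 (8.7%, against 7.73% of all genes). With control 2 left out as well, 10 passed as higher and 1 as lower (23.9% together), against 5.49% and 5.5% of all genes.

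The Hox genes, the classical targets of Polycomb silencing, were not detectable in either group at this depth. Of 39 Hox genes, 29 were at 0 in all 8 libraries, and the other 10 gave 9 counts over the controls and 12 over the mutants, with 0 to 4 counts per library. A count of 0 allows up to 3 counts, or 0.167 CPM in the shallowest library, and covers counting error only. None of the Hox genes passed the filter, so none was tested.

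The cell types in the tissue were followed by marker genes. The markers of cortical excitatory neurons, the cells in which BAF was deleted, were present in every library, and the sum of 9 such genes was 1636 to 1895 CPM in the control and 1363 to 1577 CPM in the mutant. The log2 fold change was below 0 for 7 of the 9, and 1 passed the test (Neurod6, log2 fold change -0.74, adjusted p = 0.0192, edgeR). Fezf2 was also lower in every mutant library than in every control but did not pass (log2 fold change -0.55, adjusted p = 0.149, edgeR). Slc17a7 had a log2 fold change of -0.54 with overlapping groups (adjusted p = 0.28, edgeR). Neurod6 is also the gene whose locus drives Nex-Cre, and without it the sum of the other 8 markers overlapped between the groups (1052 to 1145 CPM in the control and 982 to 1166 CPM in the mutant). The sum of 5 oligodendrocyte precursor markers was 172.7 to 252.0 CPM in the control and 252.1 to 307.8 CPM in the mutant, above 0 in log2 fold change for 5 of 5, with 1 called higher (Cspg4, adjusted p = 0.0355, edgeR). Of 8 microglia markers, 5 had log2 fold changes above 0 and 3 below, and 1 was called higher (C1qb, log2 fold change 0.46, adjusted p = 0.0422, edgeR). C1qc was higher in every mutant library than in every control but did not pass (log2 fold change 0.51, adjusted p = 0.0679, edgeR). P2ry12, another microglia marker, was lower in every mutant library than in every control and did not pass either (log2 fold change -0.57, adjusted p = 0.0596, edgeR). The sum of the 8 ranged from 104.6 to 120.9 CPM in the control and 108.7 to 145.6 CPM in the mutant. The 9 radial glia markers summed to 2395 to 2767 CPM in the control and 1978 to 2421 CPM in the mutant, with log2 fold changes above 0 for 4 and below 0 for 5. Most of that sum was Fabp7 (log2 fold change -0.50, adjusted p = 0.113, edgeR), which like Hopx (-0.34, adjusted p = 0.131, edgeR) was lower in every mutant library than in every control, and without Fabp7 the sums were 791.4 to 1065 and 807.2 to 1184 CPM. Sums for intermediate progenitors (73.45 to 103.2 and 75.4 to 117.3 CPM), interneurons (610.6 to 819.3 and 564.6 to 742.5 CPM), astrocytes (295.4 to 435.7 and 350.6 to 571.2 CPM) and endothelial cells (97.0 to 146.0 and 122.6 to 162.8 CPM) overlapped between the groups. Choroid plexus markers ranged from 3.54 to 1327 CPM over the 8 libraries, with no separation of the groups, and red blood cell markers from 81.8 to 185.4 CPM. No marker list had a gene at 0 in all libraries. The part of cell composition in the differences of Jarid2, Ezh1 and the other members was not tested.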

How the data were processed

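For 8 libraries of P1 cortex (TRIzol RNA of whole tissue, TruSeq RNA v2 kit) the deposited values are read counts for each Ensembl gene that the authors left unnormalized. The processing notes name build mm10, and the aligner, counting program, annotation and strand setting are not given in the sources used here. Of 48709 genes, 48349 were matched to GENCODE M21 (GRCm38) for symbols, positions and exon length. That the Cre line is Nex-Cre, and the control genotype, were taken from the paper, not from the labels.

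Counts were tested in R 4.3.3 with edgeR 4.0.16 (filterByExpr, which kept 16287 genes, TMM, robust quasi-likelihood F test, two-sided, no covariates, 4 control against 4 dcKO_Nex-Cre), with Benjamini-Hochberg adjustment over all genes tested and a threshold of 0.05. The biological coefficient of variation was 0.143, and single differences were also compared by exact permutation over 70 regroupings, which cannot give a p below 0.0286. CPM values were scaled by library sizes after TMM normalization, and levels between genes are CPM per kilobase of merged exons. DESeq2 1.42.0 was the alternative test. Scripts were tested on simulated counts. Total counts per library were 17958641 to 35191912, and no pair of libraries of a group agreed within counting noise (chi-square per degree of freedom at least 3.52). Promoter sequences are from RefSeq (GRCm38.p6). Other settings tried were size factors, filters, a replicate block, the shared name tag and leaving out libraries.

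The members and all gene lists were chosen with earlier results of these data known. Values are given library by library for the 14 members with the smallest p and for the paralogue pairs Ezh1 and Ezh2, Kdm6a and Kdm6b, Kmt2a and Kmt2b, and Cbx2 and Cbx7, and for at most 5 genes by smallest p from each other list. Rnf2 and the family shares with no overlap were singled out after their values were seen. In a further list of 48 Polycomb and trithorax genes, 1 symbol was not matched.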

Additional observations from a re-analysis of the deposited data

Results flagged for a closer look

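In 9 of the 90 groups of 4 values examined (41 members, Smarcc1 and Smarcc2, with the total count and the mitochondrial share taken the same way, in each group of libraries), 1 library was farther from the nearest other than Dixon's 95% limit allows. Chance alone flags about 1 in 20 such groups, or 4.5 of 90. Of the 9, 6 fell in control 2. There Pcgf2 was at 146.5 CPM against 105.6 to 112.2 in the other controls, Kdm6a at 53.97 against 35.99 to 37.09, Kmt2b at 140.2 against 106.2 to 107.8, Kmt2c at 131.2 against 110.7 to 113.3, Kmt2d at 88.2 against 53.0 to 57.5, and Wdr5 at 70.01 against 77.0 to 77.5. Ezh2 was at 81.6 CPM in control 4 against 92.7 to 93.1 in the other controls. In the mutants, Rnf2 was at 226.0 CPM in dcKO_Nex-Cre 4 against 166.0 to 168.6, and Kdm2b at 118.3 CPM in dcKO_Nex-Cre 1 against 96.4 to 98.95.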

How the results depend on the processing

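All 16 other settings were compared with the reported one, of which 2 (leaving out control 2 together with dcKO_Nex-Cre 4 or dcKO_Nex-Cre 2) were chosen after seeing the data. Of 41 members, 27 kept the sign of their log2 fold change in every setting, and the other 14 had reported values of at most 0.129 in size. The number of members called higher at an adjusted p below 0.05 was 0 as reported, 1 with DESeq2, 1 in the shared name tag, 0 to 2 when 1 library was left out, and 5 without control 2 and dcKO_Nex-Cre 4. The number called lower was 0, 0 to 1 with 1 library left out, and 1 without control 2 and dcKO_Nex-Cre 4. At an unadjusted p the number higher was 3, then 5 in the shared name tag, 2 to 11 with 1 library left out, 16 without control 2 and dcKO_Nex-Cre 4, and 8 without control 2 and dcKO_Nex-Cre 2. The number lower was 0, then 2 with no filter on low counts, 4 in the shared name tag, 0 to 4 with 1 library left out, and 2 without control 2 and dcKO_Nex-Cre 4. Over all genes, 2222 of 16287 had an unadjusted p below 0.05 in either direction as reported. There were 2800 of 30127 with no filter, 3946 of 16792 in the shared name tag and 1597 to 4660 with 1 library left out. Without control 2 and dcKO_Nex-Cre 4 there were 4638 of 16330, and without control 2 and dcKO_Nex-Cre 2 there were 1652 of 16285. Of the further Polycomb and trithorax genes, 0 to 4 were called with 1 library left out and 11 without control 2 and dcKO_Nex-Cre 4. Over all genes, 144 were called as reported, 494 with DESeq2, 259 with no filter, 248 in the shared name tag, 18 to 1278 with 1 library left out (1278 without dcKO_Nex-Cre 4), 1794 without control 2 and dcKO_Nex-Cre 4, and 40 without control 2 and dcKO_Nex-Cre 2. The cause was not tested.

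Same-numbered control and mutant libraries had correlations of their deviations of 0.126, 0.018, 0.135 and -0.138. The labels do not say whether replicate numbers pair the libraries. These correlations cannot decide it, because a weak pairing could give values this low. With a replicate block 54 genes were called over all, no member was, 2 members (Ezh1 and Jarid2) had an unadjusted p below 0.05, the log2 fold change of Smarcc1 was -0.54 (adjusted p = 0.0578, edgeR) and that of Rybp was -0.00017.

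Smarcc1 missed the threshold also in the shared name tag (-0.455, adjusted p = 0.0752, edgeR), and ranged from -0.637 to -0.474 with 1 or 2 libraries left out. Signs of log2 fold changes turned for Rybp (-0.00017) and Kdm2b (-0.002) with at least 10 counts required in every library, and in the shared name tag for Cbx6 (0.028), Pcgf1 (-0.074), Pcgf5 (-0.034) and Kdm6a (0.063). With 1 or 2 libraries left out they turned for Mtf2 (-0.23 to 0.011), Phf1 (-0.113 to 0.012), Phf19 (-0.025 to 0.26), Cbx6 (-0.111 to 0.07), Cbx7 (-0.187 to 0.126), Pcgf1 (-0.049 to 0.185), Pcgf2 (-0.139 to 0.085), Pcgf5 (-0.13 to 0.164), Rybp (-0.049 to 0.086), Kdm2b (-0.071 to 0.045), Kdm6a (-0.162 to 0.129), Kmt2b (-0.058 to 0.103), Kmt2d (-0.049 to 0.235) and Ash2l (-0.005 to 0.097).

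At 4 libraries a group, differences smaller than the 95% intervals given could not be told from 0, and counting error was largest for Phf19 and Pcgf5, with means of 85.75 and 98.75 counts per library. The name tag and the genotype cannot be told apart for dcKO_Nex-Cre 3 and 4, and what the tag stands for is not given in the labels.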
